A study of Mus musculus with 2 samples.

Results

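The 10 transcription regulators described here set the B cell or the plasma cell programme and were followed across the cells of mouse spleen: Pax5, Ebf1, Bach2, Spib, Pou2af1, Bhlhe41, Bcl6, Irf4, Prdm1 and Xbp1. The 10 genes were chosen by name, and all 10 are among the 31017 gene symbols of the deposited table, of which 18393 had at least 1 count. Spleen cells were profiled by droplet 3′ single-cell RNA sequencing, which counts transcripts by unique molecular identifiers (UMIs). By their titles and the protocol text, 1 spleen sample is WAS-KO, a knockout model of Wiskott-Aldrich syndrome, and 1 is WT, both from mice 6 to 8 weeks old. The label for the mouse model names Wiskott-Aldrich syndrome for both samples. The labels give no strain, no allele and no number of mice.

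All 7524 barcodes of the table carry the same suffix, so no barcode could be tied to WAS-KO or WT, and the cells were treated as 1 pooled sample. The genotypes were not compared. Cell types were compared within that 1 sample, with no replicate check and no p-value. Every interval given is a 95% interval for counting error only. The table held 46882070 UMIs. After removal of barcodes with fewer than 200 detected genes or over 10% mitochondrial UMIs, 6588 barcodes remained, with a median of 5339 UMIs and 1907 genes. Raw UMIs of lineage markers that are no members put 5241 of them in exactly 1 lineage gate, among them 44 plasma cells, 2868 B cells, 1033 T cells and 289 NK cells. Another 862 barcodes, with a median of only 979.5 UMIs, passed no gate, and 485 passed 2 or more and were set aside. The plasma cells were deep, with a median of 28220 UMIs against 5150 in B cells, and 46.2% of their UMIs came from immunoglobulin constant genes, against 1.97% in B cells. Levels are summed UMIs of a group scaled to 1000000 UMIs of that group (CPM). The levels of the gates' own genes follow from the gating and are given as a description. The plasma cells held 42962 UMIs of Jchain, the joining chain of secreted IgM and IgA, and 645 of Derl3. The B cell gene Ms4a1 stood at 60.1 CPM in plasma cells, 1724 CPM in B cells and 8.90 CPM in T cells, and Cd79a, a signalling chain of the B cell receptor, stood at 542 CPM in plasma cells, 3367 CPM in B cells and 29.2 CPM in T cells.

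B cell identity is held by Pax5 and Ebf1, which switch on genes of the B cell receptor and switch off genes of other lineages. A B cell that becomes a plasma cell raises Irf4 and Prdm1, the gene of Blimp-1, and Blimp-1 in turn represses Pax5, Bcl6 and Spib. Bach2 and Bcl6 hold Prdm1 down in resting and germinal centre B cells. Xbp1 then widens the endoplasmic reticulum for antibody secretion. Its protein is made in full length only after its mRNA is spliced in the cytoplasm, and 3′ counts do not tell the spliced from the unspliced mRNA.

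By the GENCODE vM21 annotation of GRCm38, the assembly that mm10 denotes, all 10 are protein-coding. Pax5 spans chromosome 4 from 44524757 to 44710487 on the minus strand, and Bach2 spans the same chromosome from 32238804 to 32586108 on the plus strand. Ebf1 (44617317 to 45008091) and Xbp1 (5520659 to 5525893) both lie on the plus strand of chromosome 11. Spib lies on chromosome 7 (44525993 to 44532071, minus strand), and Pou2af1 on chromosome 9 (51213708 to 51240080, plus strand). Bhlhe41 lies on chromosome 6 (145858243 to 145865558, minus strand) and Bcl6 on chromosome 16 (23965052 to 23988852, minus strand). Irf4 lies on chromosome 13 (30749226 to 30766976, plus strand) and Prdm1 on chromosome 10 (44437177 to 44528501, minus strand).

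The promoters of the 3 repressors Bach2, Bcl6 and Prdm1 are shown because Bach2 and Bcl6 were low in the same B cell groups and Prdm1 was high in plasma cells. Each is the stretch of 250 bases before a transcription start in RefSeq (GRCm38.p6), 5′ to 3′ on the gene's strand. Capitals mark matches on either strand to a Bcl6-type motif (TTCNNNGAA) or an ETS-IRF composite motif (GGAANNGAA) in Bach2 and Bcl6, and to an AP-1-type motif (TGANTCA) in Prdm1.
Bach2 promoter (chr4:32417185-32417434, plus strand): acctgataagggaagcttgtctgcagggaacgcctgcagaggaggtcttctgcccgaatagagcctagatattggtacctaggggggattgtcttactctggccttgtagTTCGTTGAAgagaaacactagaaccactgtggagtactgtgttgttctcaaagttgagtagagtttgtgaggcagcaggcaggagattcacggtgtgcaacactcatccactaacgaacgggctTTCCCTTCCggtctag
Bcl6 promoter 1 (chr16:23988853-23989102, minus strand): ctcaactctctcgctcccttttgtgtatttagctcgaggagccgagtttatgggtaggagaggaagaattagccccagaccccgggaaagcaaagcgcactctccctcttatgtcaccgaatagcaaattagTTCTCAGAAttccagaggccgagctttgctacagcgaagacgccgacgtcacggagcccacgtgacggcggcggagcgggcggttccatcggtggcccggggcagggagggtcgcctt
Bcl6 promoter 2 (chr16:23981284-23981533, minus strand): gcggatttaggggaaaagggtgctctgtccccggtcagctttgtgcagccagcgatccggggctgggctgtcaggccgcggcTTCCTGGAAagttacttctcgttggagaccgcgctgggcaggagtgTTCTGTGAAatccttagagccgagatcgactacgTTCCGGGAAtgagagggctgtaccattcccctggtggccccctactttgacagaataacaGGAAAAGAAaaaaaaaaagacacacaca
Prdm1 promoter (chr10:44458749-44458998, minus strand): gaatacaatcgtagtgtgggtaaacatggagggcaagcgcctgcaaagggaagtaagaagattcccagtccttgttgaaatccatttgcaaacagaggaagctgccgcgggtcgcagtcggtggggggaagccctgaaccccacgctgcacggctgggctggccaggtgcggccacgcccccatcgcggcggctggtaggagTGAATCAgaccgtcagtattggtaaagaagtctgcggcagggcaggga

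The Bcl6-type motif matched 7.02% of the 32851 RefSeq promoters of this length, and among the members it matched Bach2 and both promoters of Bcl6. The match in Bach2 was TTCGTTGAA, 140 to 132 bases before the start, and promoter 2 of Bcl6 held 3 matches, TTCCTGGAA, TTCTGTGAA and TTCCGGGAA. The ETS-IRF composite matched 6.99% of all promoters, and Bach2 and promoter 2 of Bcl6 among the members. The AP-1-type motif matched 6.75% of all promoters and only Prdm1 among the 10 members, as TGAATCA 48 to 42 bases before the start. The octamer ATGCAAAT, which Pou2af1 joins through its Oct partners, matched 1.60% of all promoters and no member. An E-box (CACGTG), the site type of Bhlhe41, matched 6.02% of all promoters and those of Bhlhe41 itself and Bcl6. An Ebf1-type motif (CCCNNGGG) matched 11.8% of all promoters and Spib, where 2 matches overlapped each other, and an Xbp1-type motif (TGACGTG) matched 1.65% and Pou2af1. In the 4 printed stretches no 2 capitalised matches overlapped. A match describes letters in this window and is not a bound site.

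The first comparison asked how the factors differed between plasma cells and B cells. Of the 10 members, 3 were at least 2-fold higher in plasma cells (Xbp1, Prdm1 and Irf4), 5 were at least 2-fold lower (Pax5, Ebf1, Bach2, Spib and Bcl6), and Pou2af1 and Bhlhe41 lay within 2-fold. Among the 8720 genes with at least 100 UMIs over both groups, 4.28% were at least 2-fold higher and 61% at least 2-fold lower, so a low ratio was common and a high ratio was rare. The median gene stood at a log2 ratio of -1.27, beside the large immunoglobulin share of plasma cells. Scaled by trimmed means (TMM) the median gene stood at -0.28 and the split was 12.4% higher and 23.4% lower. Under TMM Bhlhe41 also passed 2-fold, which gave 4 members higher and the same number of 5 lower.

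**Figure D1:**
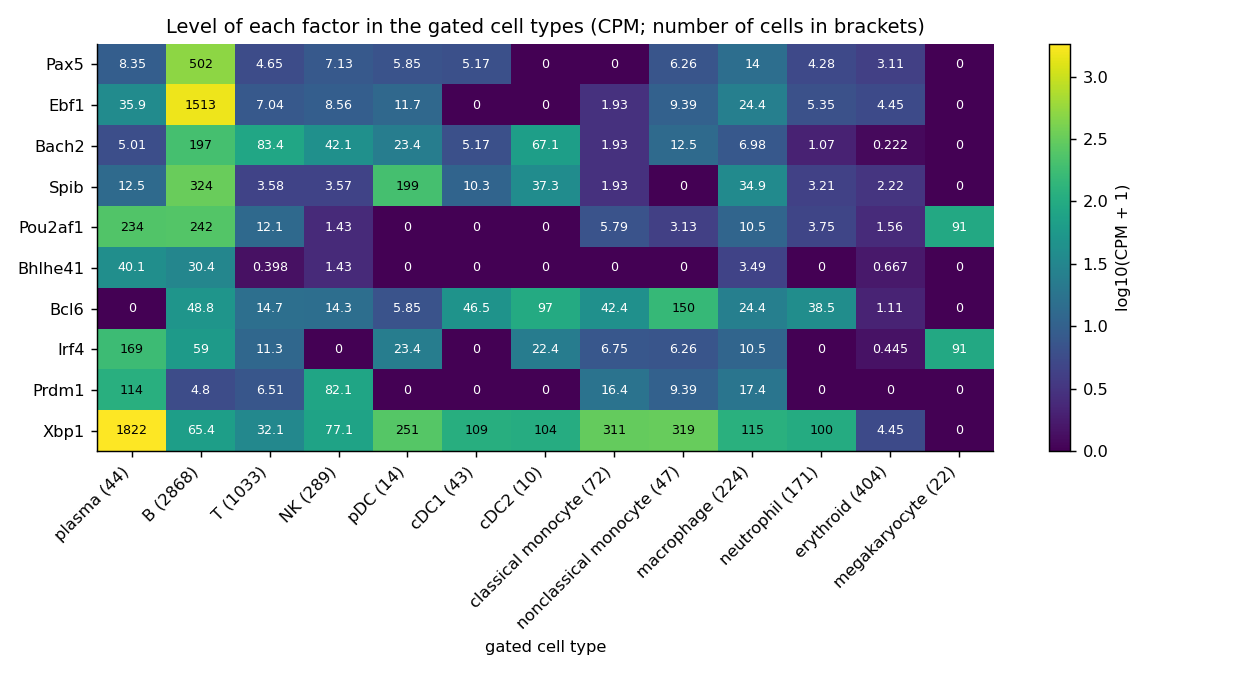
Heat map of the level of each factor (rows) in the gated cell types (columns, number of cells in brackets), coloured by log10(CPM + 1) with the CPM written in each cell. Pax5, Ebf1, Bach2 and Spib were highest in B cells, while Xbp1, Prdm1 and Irf4 were highest in plasma cells. The megakaryocyte column rests on so few UMIs that 2 UMIs read as 91.0 CPM.

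Pax5, the factor that commits a cell to the B lineage, stood at 8.35 CPM in plasma cells (interval 4.0 to 15.4, 10 UMIs) and at 502 CPM in B cells (8796 UMIs). The log2 ratio was -5.91 (-6.97 to -5.03). By CPM the plasma cell level was not separated from that of T cells, which should lack Pax5. T cells had 4.65 CPM, and the log2 ratio of plasma cells over T cells was 0.85 with an interval from -0.33 to 1.89. Immunoglobulin constant genes made up 46.2% of plasma cell UMIs, which lowers the CPM of other genes. The ratio over T cells was not computed under TMM. A UMI of Pax5 was found in 13.6% of plasma cells and 3.00% of T cells, at median depths of 28220 and 6880 UMIs. Thinned to 1000 UMIs a cell, 2.27% of plasma cells and 39.3% of B cells had one. B cells held 92.4% of all Pax5 UMIs in the kept barcodes, with 39.1% of all UMIs.

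Ebf1, which opens B lineage chromatin ahead of Pax5, stood at 35.9 CPM in plasma cells (43 UMIs) and 1513 CPM in B cells (26502 UMIs), a log2 ratio of -5.40 (-5.86 to -4.97). T cells had 7.04 CPM. By CPM, Ebf1 in plasma cells lay above the T cell level, at a log2 ratio of 2.35 (1.74 to 2.96), while Pax5 was not separated from it. One plasma cell held 18 of the 43 UMIs, and without it the plasma level was 21.5 CPM and the log2 ratio over T cells was 1.61 (0.87 to 2.33).

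Spib, an Ets-family factor that supports B cell receptor signalling, had 12.5 CPM in plasma cells (15 UMIs) and 324 CPM in B cells (5668 UMIs). The log2 ratio was -4.69 (-5.53 to -3.97). Outside the B lineage its level was highest in plasmacytoid dendritic cells, a type whose development needs Spib in mice, at 199 CPM (34 UMIs in 12 of 14 cells). The log2 ratio of plasmacytoid dendritic cells over B cells was -0.70 (-1.23 to -0.22), within 2-fold. The next cell type, type 2 dendritic cells, had 37.3 CPM from 5 UMIs.

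Bach2, a repressor that delays plasma cell formation, had 5.01 CPM in plasma cells (6 UMIs in 3 cells) and 197 CPM in B cells (3446 UMIs), a log2 ratio of -5.30 (-6.74 to -4.17). It was not confined to B cells, since T cells had 83.4 CPM and NK cells 42.1 CPM. Bcl6, the repressor of the germinal centre programme, had no UMI in the 44 plasma cells, while B cells had 48.8 CPM (855 UMIs). With up to 3 UMIs allowed for a count of 0, Bcl6 was at least 19.5-fold lower in plasma cells by CPM, and at least 9.76-fold lower under TMM and 9.45-fold under size factors. Both repressors of Prdm1 were at or near the detection limit in plasma cells.

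Pou2af1, the coactivator OBF-1 of the octamer-binding factors, was nearly level between the 2 groups, at 234 CPM in plasma cells (280 UMIs) and 242 CPM in B cells (4235 UMIs). The log2 ratio was -0.05 (-0.23 to 0.13), which placed it above 86.9% of the genes measured. Of the other lineages, leaving out the shallow megakaryocytes, none had more than the 12.1 CPM of T cells. This near equality depends on the scaling, since the log2 ratio was 0.95 under TMM and 0.99 under median-of-ratios size factors. Bhlhe41, a repressor that in mice supports B-1 cells, had 40.1 CPM in plasma cells (48 UMIs in 24 cells) and 30.4 CPM in B cells (533 UMIs), a log2 ratio of 0.40 (-0.06 to 0.83), and 1.39 under TMM. T cells had 3 UMIs of Bhlhe41.

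Irf4, which drives both class switching and plasma cell formation, had 169 CPM in plasma cells (203 UMIs in 32 cells) and 59.0 CPM in B cells (1034 UMIs in 740 cells), a log2 ratio of 1.52 (1.30 to 1.74). Prdm1 had 114 CPM in plasma cells (136 UMIs in 34 cells) and 4.80 CPM in B cells (84 UMIs in 69 cells), a log2 ratio of 4.57 (4.16 to 4.98). Xbp1 had 1822 CPM in plasma cells (2182 UMIs in all 44 cells) and 65.4 CPM in B cells (1145 UMIs in 784 cells), a log2 ratio of 4.80 (4.70 to 4.90). Prdm1 and Xbp1 stood above 99.6% and 99.7% of the genes measured. Plasma cells made up 0.668% of the kept barcodes and held 2.68% of all their UMIs. They held 34.4% of the Xbp1 UMIs and 24.1% of the Prdm1 UMIs.

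**Figure D2:**
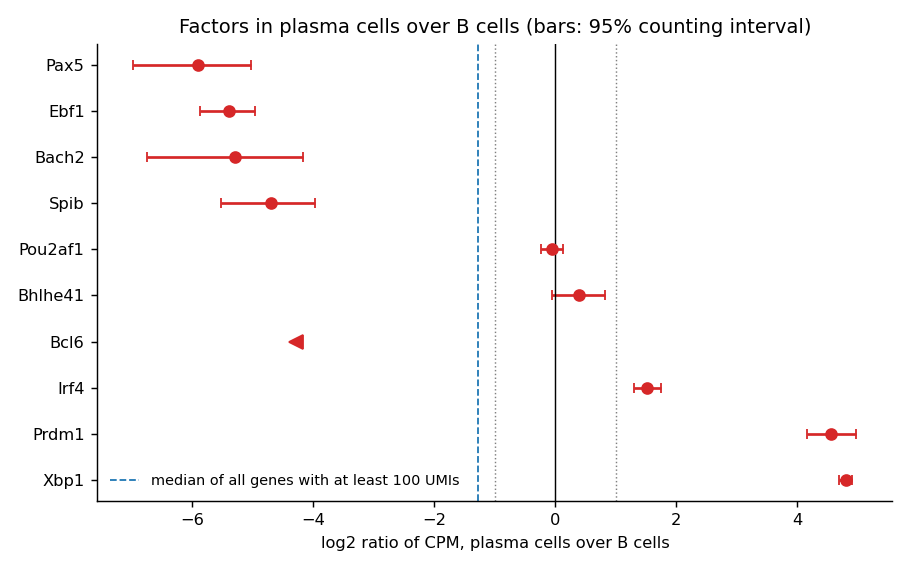
Log2 ratio of CPM, plasma cells over B cells, for each factor, with 95% counting intervals. The triangle for Bcl6 marks a bound from a count of 0, dotted lines mark 2-fold and the dashed line marks the median gene at -1.27. Pax5, Ebf1, Bach2, Spib and Bcl6 lie left of the median gene and Irf4, Prdm1 and Xbp1 lie right of the upper 2-fold line.

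Cell by cell, the plasma cells ranged from 3128 to 61706 UMIs. Xbp1 ranged from 4 to 290 UMIs with a median of 43.5, so every plasma cell had it. Prdm1 ranged from 0 to 16 UMIs with a median of 2, Irf4 from 0 to 40 with a median of 2.5, and Pou2af1 from 0 to 30 with a median of 5. Of the 44 cells, 24 had no UMI of Pax5, Ebf1, Bach2 or Spib. Of the others, 2 cells held most of the 74 UMIs of these 4 factors, and none of the rest held more than 3. A cell of 32105 UMIs whose leading heavy chain was Igha held 12, with 3 of Pax5, 6 of Ebf1 and 3 of Spib. A cell of 36344 UMIs whose leading heavy chain was Ighm held 31, with 3 of Pax5, 18 of Ebf1, 4 of Bach2 and 6 of Spib. The Ighm cell had 987 UMIs of Jchain, 20 of Xbp1, 23 of the B cell gene Ms4a1 and none of Ciita, and 13.8% of its UMIs came from immunoglobulin constant genes, near the gate minimum of 10%. Without the Ighm cell the log2 ratios over B cells were -6.38 for Pax5, -6.14 for Ebf1, -6.84 (-9.88 to -4.98, from 2 UMIs) for Bach2 and -5.38 for Spib. Within the 7 factors Pax5, Ebf1, Bach2, Spib, Irf4, Prdm1 and Xbp1, the last 3 made up 97.1% of the UMIs in plasma cells and 4.85% in B cells. In single plasma cells this share ran from 45.6% to 100%.

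**Figure D3:**
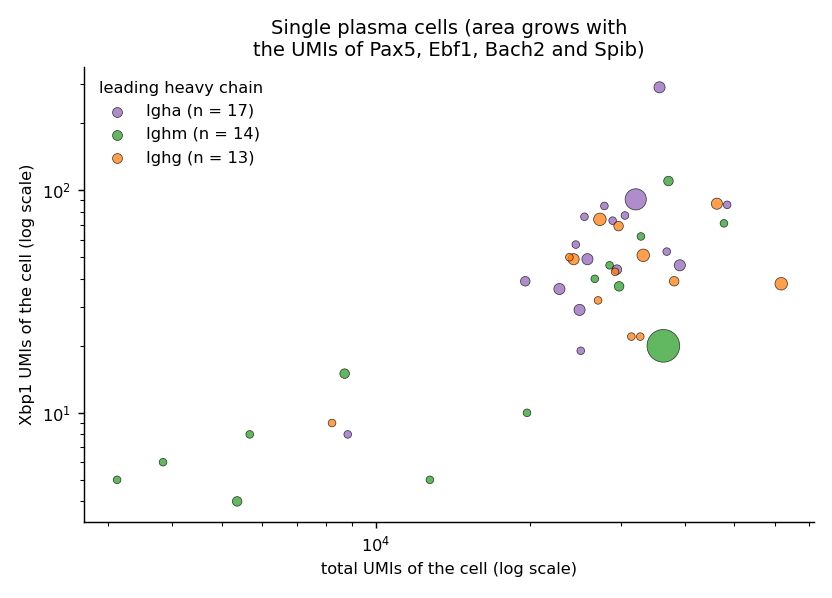
Xbp1 UMIs against total UMIs of each of the 44 plasma cells, both on log axes, coloured by the leading heavy chain, with a point area that grows with the UMIs of Pax5, Ebf1, Bach2 and Spib. Xbp1 was counted in every cell, from 4 to 290 UMIs, and the largest point is the Ighm cell with 31 UMIs of the 4 B cell factors.

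By leading heavy chain, 17 plasma cells carried Igha, 14 carried Ighm and 13 carried an Ighg gene. The secretory factor Xbp1 stood at 2381 CPM in Igha cells, 1472 CPM in Ighm cells and 1415 CPM in Ighg cells. One Igha cell held 290 of the Xbp1 UMIs, and without it the Igha level was 1927 CPM. The median over cells was 1896 CPM in Igha, 1493 CPM in Ighm and 1470 CPM in Ighg cells, and the cells of the 3 groups overlapped, from 757 to 8118 CPM in Igha cells, 392 to 2958 CPM in Ighm cells and 616 to 2707 CPM in Ighg cells. Irf4 stood at 210 CPM in Igha, 87.2 CPM in Ighm and 181 CPM in Ighg cells, but the Ighg value fell to 99.6 CPM without 1 cell that held 40 of its UMIs. Prdm1 stood at 123 CPM in Igha, 90.5 CPM in Ighm and 119 CPM in Ighg cells, and at 59.3 CPM in Ighm cells without the cell that held 11 of its UMIs. Of the 44 cells, 4 passed a proliferation gate (Mki67, Top2a, Birc5, Cdk1 and Ccnb1). Irf4 stood at 312 CPM (interval 233 to 408) in those 4 and 146 CPM (124 to 171) in the other 40, and Prdm1 at 159 CPM in those 4 and 106 CPM in the other 40 with overlapping intervals. The directions of both rest on 1 cell of 61706 UMIs, which held 40 of the 53 Irf4 and 16 of the 27 Prdm1 UMIs of the 4. Without it the level in the proliferating cells was 120 CPM (63.9 to 205) for Irf4 and 102 CPM (50.7 to 182) for Prdm1, below the other 40 in value with overlapping intervals. Xbp1 stood at 1353 CPM (1183 to 1539) in those 4 and 1899 CPM (1816 to 1985) in the other 40.

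Lists of genes that these factors are known to govern were counted in the same way. Of 20 B cell identity targets of Pax5 and Ebf1, 20 were at least 2-fold lower in plasma cells, with a median log2 ratio of -4.03 beside -1.27 for all genes. Ciita, the master activator of MHC class II genes, had 1 UMI in plasma cells and 5681 in B cells, a log2 ratio of -8.60 (-13.9 to -6.12). The low-affinity IgE receptor gene Fcer2a stood at -7.01 (-9.29 to -5.46) and the chemokine receptor gene Cxcr5 at -6.09 (-9.14 to -4.24). All 7 measured genes of the Blimp-1 repressed list were at least 2-fold lower, with a median of -5.07, and 3 of these are the members Pax5, Bcl6 and Spib. Id3, an inhibitor of E proteins, had no UMI in plasma cells against 1469 in B cells.

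Of 32 secretory genes listed as driven by Xbp1, 30 were at least 2-fold higher in plasma cells and none was lower, with a median of 2.71. The part of Xbp1 in these levels was not tested. Creld2, a chaperone of the endoplasmic reticulum, stood at 1015 CPM in plasma cells and 34.3 CPM in B cells, a log2 ratio of 4.89 (4.75 to 5.03). The COPII coat gene Sec24d stood at 4.75 and Edem1, which clears misfolded glycoproteins, at 4.47. Of 8 measured genes in a list of other sensors and factors of the unfolded protein response, 2 were higher, 1 was lower and 5 lay within 2-fold. Creb3l2 stood at 4.37 and Ell2, an elongation factor for secreted immunoglobulin mRNA, at 3.28. Ddit3, the gene of the stress factor CHOP, stood at 12.5 CPM in plasma cells and 32.7 CPM in B cells, a log2 ratio of -1.39 (-2.23 to -0.65), near the median gene at -1.27. Under TMM Ddit3 stood at -0.39, and the list had 6 genes higher and none lower. Of 26 measured other factors of the B cell network, 22 were lower and none higher (median -2.29), beside the 61% of all genes that were lower, with Bcl11a at -5.32 and Lmo2 at -5.14. Of 11 measured partner genes of the members, 10 were lower (median -2.76), among them Ets1 at -3.23 and Runx1 at -3.04. Under TMM, where 23.4% of all genes were lower, 13 of the 26 network factors and 8 of the 11 partner genes were lower, with 1 network factor higher. The other lists gave 17 of 20 B cell identity genes lower, 7 of 7 Blimp-1 repressed genes lower and 31 of 32 secretory genes higher under TMM.

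The second comparison set B cells against T cells. All members but Prdm1 were at least 2-fold higher in B cells, 9 of 10, beside 10.9% of the 9354 genes tested higher and 8.39% lower. Ebf1 had the highest log2 ratio at 7.75 (7.36 to 8.17), followed by Pax5 at 6.76 and Spib at 6.50. Bhlhe41 stood at 6.26 (4.70 to 8.54, from 3 T cell UMIs), Pou2af1 at 4.32, Irf4 at 2.39, Bcl6 at 1.73 and Bach2 at 1.24. Xbp1 was only just past 2-fold at 1.02 with an interval from 0.82 to 1.23. Prdm1 stood at 4.80 CPM in B cells and 6.51 CPM in T cells, a log2 ratio of -0.44 with an interval from -0.97 to 0.10. All 20 B cell identity genes were higher in B cells (median 5.94), while of 31 secretory genes 6 were higher, 1 was lower and 24 lay within 2-fold.

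B cells were then divided by surface and state markers. The gates gave 1060 follicular (Fcer2a and Ighd), 138 marginal zone (Cd9 or S1pr3, with little Fcer2a), 224 transitional (Cd93), 33 B-1-like (Cd5, Zbtb32, Spn, Ctla4 and Plscr1) and 20 class-switched cells, 12 cells with germinal centre markers, 67 cycling cells and 1314 other B cells. Median depth was 8668 UMIs in marginal zone, 5302 in transitional, 10508 in B-1-like and 5052.5 in follicular cells. With all cells of each group counted, Pax5 and Pou2af1 varied least among these subsets, and Bach2, Bcl6 and Bhlhe41 varied most. In the 12 cells with germinal centre markers, 1 cell held 15 of the 25 Pou2af1 UMIs, and the level without it was 114 CPM.

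In marginal zone over follicular B cells, 1 member was at least 2-fold higher (Bhlhe41) and 2 were at least 2-fold lower (Bach2 and Bcl6) of the 9 with at least 100 UMIs over both groups. Among the 6666 genes tested 2.06% were higher and 4.82% lower. Bach2 stood at 30.9 CPM in marginal zone cells (40 UMIs) and 228 CPM in follicular cells (1353 UMIs), a log2 ratio of -2.89 (-3.38 to -2.43) that was lower than all but 0.18% of genes. Thinned to 1000 UMIs, 3.62% of marginal zone and 21.2% of follicular cells had a Bach2 UMI. The unthinned shares were 20.3% of marginal zone and 63.7% of follicular cells. Bcl6 stood at 14.7 CPM in marginal zone cells (19 UMIs) and 63.5 CPM in follicular cells (376 UMIs), a log2 ratio of -2.11 (-2.86 to -1.45).

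Bhlhe41 stood at 30.9 CPM in marginal zone cells and 13.5 CPM in follicular cells, a log2 ratio of 1.19 (0.61 to 1.76). Prdm1 had too few UMIs to enter the count, with 17 in marginal zone cells (13.1 CPM) and 21 in follicular cells (3.54 CPM). Its log2 ratio was 1.89 (0.87 to 2.88). The other factors lay within 2-fold, with Spib at -0.47, Pax5 at -0.20, Ebf1 at -0.03, Pou2af1 at -0.06, Irf4 at 0.17 and Xbp1 at 0.22. Only 1 of 31 secretory genes was higher (Pdia4, 1.69) and 1 lower (Txndc5, -1.36). Of 25 other network factors 3 were higher, namely the inhibitor of E proteins Id2 (1.80), Zbtb20 (1.13) and the E protein gene Tcf4 (1.03), and 2 were lower, Lmo2 (-1.59) and the trafficking factor Klf2 (-1.49). Of the 20 B cell identity genes, Cr2 was higher and Fcer2a and Cd55 lower, and all 3 are markers of these subsets. In the Blimp-1 repressed list Myc was higher (1.87) and Bcl6 lower.

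**Figure D4:**
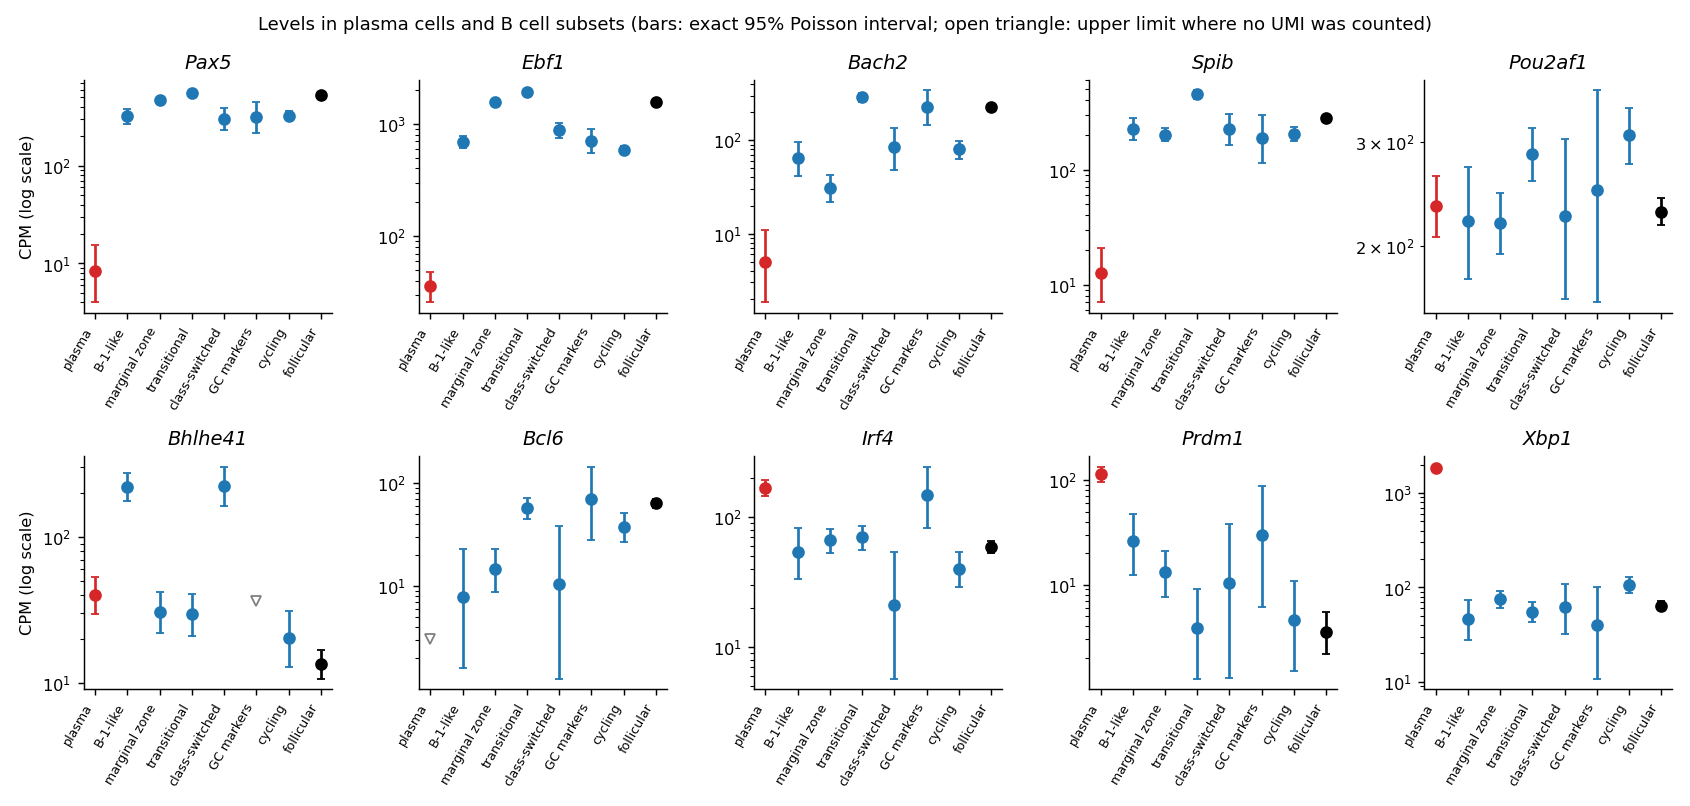
Level of each factor (CPM, log axis with a separate range in each panel) in plasma cells, 6 B cell subsets and follicular B cells, with exact 95% Poisson intervals; an open triangle marks the upper limit where no UMI was counted. Bach2 and Bcl6 were low in marginal zone and B-1-like cells, Bhlhe41 was high in B-1-like and class-switched cells, and Pou2af1 stayed between 219 and 308 CPM in all groups shown. Its 249 CPM in cells with germinal centre markers rested on 1 cell with 15 of the 25 UMIs, and was 114 CPM without it.

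In transitional over follicular B cells, only Bhlhe41 passed 2-fold among 9 members, beside 0.72% of the 6667 genes tested that were higher and 0.645% that were lower. It stood at 29.6 CPM in transitional cells (38 UMIs) and 13.5 CPM in follicular cells (80 UMIs), a log2 ratio of 1.13 (0.53 to 1.70). In transitional cells 4 B cell factors lay above follicular cells by less than 2-fold with intervals above 0. Spib stood at 450 CPM in transitional and 279 CPM in follicular cells (0.69, 0.55 to 0.83). Ebf1 stood at 1899 CPM in transitional and 1570 CPM in follicular cells (0.27, 0.21 to 0.34). The repressor Bach2, at 289 CPM in transitional and 228 CPM in follicular cells (0.34, 0.17 to 0.50), and the coactivator Pou2af1, at 286 CPM in transitional and 229 CPM in follicular cells (0.32, 0.15 to 0.49), lay above follicular cells by a similar amount. Pax5 did not differ beyond its interval, at 0.04 (-0.08 to 0.16). Transitional cells had the highest levels of Ebf1 and Spib among the 7 B cell subsets named, and their Pax5 and Bach2 levels were not separated from the next subset in the order.

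In B-1-like over follicular B cells, Bhlhe41 was the 1 member higher and Bcl6, Bach2 and Ebf1 were the 3 lower, beside 2.17% of the 6269 genes higher and 10.8% lower. Bhlhe41 stood at 220 CPM in B-1-like cells (85 UMIs in 27 of 33 cells) and 13.5 CPM in follicular cells (80 UMIs in 58 of 1060 cells). Its log2 ratio of 4.03 (3.57 to 4.49) was above 99.98% of the genes tested. Thinned to 1000 UMIs, 24.2% of B-1-like and 0.66% of follicular cells had a Bhlhe41 UMI. Bcl6 had 3 UMIs in B-1-like cells, a log2 ratio of -3.03 (-5.31 to -1.47), Bach2 stood at -1.82 (-2.45 to -1.25) and Ebf1 at -1.18 (-1.36 to -1.01), with 692 CPM in B-1-like and 1570 CPM in follicular cells. Pax5 stood at -0.73 (-1.005 to -0.475). Prdm1 had 10 UMIs in 7 B-1-like cells, or 25.9 CPM, against 3.54 CPM in follicular cells, a log2 ratio of 2.87 (1.62 to 4.02) below the UMI minimum of the count. Zbtb20 stood at 2.60 and Mef2c at -1.52 among the network factors. No secretory gene of 31 passed 2-fold in either direction.

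Class-switched B cells also had high Bhlhe41, with 225 CPM (43 UMIs in 13 of 20 cells) and a log2 ratio over follicular cells of 4.06 (3.49 to 4.61). Markers of B-1-like cells were also high there, with Spn at 99.5 CPM in class-switched and 7.76 CPM in follicular cells, Zbtb32 at 52.4 CPM in class-switched and 0.675 CPM in follicular cells, and Zbtb20 at 660 CPM in class-switched and 125 CPM in follicular cells. Without the 2 class-switched cells that passed the B-1-like marker minimum the Bhlhe41 ratio was 3.95. The levels in class-switched and B-1-like cells could not be separated. Bach2 stood at 83.8 CPM in class-switched and 228 CPM in follicular cells, a log2 ratio of -1.45 (-2.26 to -0.74). In the 12 cells with germinal centre markers Irf4 stood at 149 CPM (15 UMIs), against 58.9 CPM in follicular cells, a log2 ratio of 1.34 (0.49 to 2.08), while Bcl6 at 69.6 CPM (7 UMIs) lay at 0.13 (-1.19 to 1.19), so a Bcl6 difference was not detectable at this depth. In cycling B cells Bach2 stood at -1.52 (-1.85 to -1.20) and Ebf1 at -1.43 (-1.54 to -1.31) relative to follicular cells. Plasma cell markers were high in this group too, with Jchain at 484 CPM in cycling and 38.0 CPM in follicular cells and Derl3 at 37.1 CPM in cycling and 2.36 CPM in follicular cells. Without the 6 cycling cells that had at least 10 Jchain UMIs, Bach2 stood at -1.68, Ebf1 at -1.29 and Xbp1 at -0.36. Xbp1 in cycling B cells stood at 107 CPM, but 1 cell of 59555 UMIs held 65 of the 115 UMIs, and without it the level was 49.1 CPM, against 64.3 CPM in follicular cells.

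B cells with high Myc, Srm and Nop16, a growth and ribosome signature of activation, were set against the remaining non-cycling B cells. In 98 Myc-high over 2703 Myc-low cells no member was at least 2-fold higher and 2 were lower, Bcl6 and Bach2, beside 6.46% of the 8425 genes higher and 8.47% lower. Bcl6 stood at 14.7 CPM in Myc-high cells (15 UMIs) and 51.9 CPM in Myc-low cells (800 UMIs), a log2 ratio of -1.82 (-2.66 to -1.08), and Bach2 at 73.7 CPM in Myc-high and 213 CPM in Myc-low cells, a log2 ratio of -1.53 (-1.88 to -1.20). Irf4 stood at 98.3 CPM in Myc-high and 57.8 CPM in Myc-low cells, a log2 ratio of 0.77 (0.45 to 1.07), below 2-fold. Ebf1 stood at -0.78, Spib at -0.68, Pax5 at -0.58 and Bhlhe41 at 0.75. Among partner genes Batf, which pairs with Irf4, was higher (1.28, 0.75 to 1.77), and Cxxc5 (-1.76) and Ets1 (-1.25) were lower. Of the 20 B cell identity genes 5 were lower and none higher. Marginal zone markers moved with the Myc-high cells, with S1pr3 at 35.4 CPM in Myc-high and 12.3 CPM in Myc-low cells, Cr2 at 559 CPM in Myc-high and 357 CPM in Myc-low cells, and Fcer2a at 169 CPM in Myc-high and 352 CPM in Myc-low cells. The marginal zone gate held 22.4% of the Myc-high and 4.29% of the Myc-low cells. Without those cells Bcl6 stood at -1.74 and Bach2 at -1.26, and Ebf1 also passed 2-fold at -1.01.

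In 119 interferon-high over 2682 interferon-low B cells, Bhlhe41 stood at 6.92 CPM in interferon-high cells (6 UMIs) and 32.4 CPM in interferon-low cells (505 UMIs), a log2 ratio of -2.23 (-3.68 to -1.10). The other members lay within 2-fold, with Pax5 at -0.07, Bach2 at -0.07 and Xbp1 at -0.01. Only 9 members had at least 100 UMIs over both groups. The share of all genes past 2-fold was not counted for this comparison, so the Bhlhe41 value has no such share beside it. Within single B cells, Prdm1 was found beside Pax5 rather than in place of it. Of 69 B cells with a Prdm1 UMI, 88.4% had Pax5 (interval 78.4% to 94.9%), against 90.4% of the B cells without one, at median depths of 7333 and 5123 UMIs. A Prdm1 UMI was found in 6.17% (3.81% to 9.37%) of B cells with Bhlhe41 and in 1.93% (1.43% to 2.54%) of those without it, at median depths of 6999 and 5044 UMIs, and the part of depth in this was not tested.

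In effector-memory T cells Bach2 was lower and Prdm1 higher than in naive T cells. In 37 effector-memory over 330 naive CD4 T cells, Prdm1 stood at 79.7 CPM in effector-memory (19 UMIs in 10 cells) and 1.36 CPM in naive cells (3 UMIs), a log2 ratio of 5.88 (4.11 to 8.28). One effector-memory cell held 9 of the 19 UMIs, and without it the level was 43.2 CPM. Bach2 stood at 25.2 CPM in effector-memory (6 UMIs) and 122 CPM in naive CD4 T cells (269 UMIs), a log2 ratio of -2.27 (-3.73 to -1.13). In CD8 T cells, Bach2 stood at 21.1 CPM in 42 effector-memory cells (7 UMIs) and 69.9 CPM in 145 naive cells (80 UMIs), a log2 ratio of -1.73 (-3.09 to -0.62). Prdm1 there had 5 UMIs in effector-memory and 2 in naive cells.

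Regulatory T cells showed the higher Prdm1, from few UMIs, but not the lower Bach2. They had Bach2 at 114 CPM, against 122 CPM in naive CD4 T cells, together with Prdm1 at 20.7 CPM (4 UMIs), against 1.36 CPM (3 UMIs), a log2 ratio of 3.93 (1.37 to 6.71). They had Irf4 at 36.3 CPM (7 UMIs), against 3.62 CPM (8 UMIs), a log2 ratio of 3.33 (1.63 to 4.98). The 11 follicular helper T cells had no UMI of Bach2 or Prdm1, with an upper interval limit of 33.5 CPM for each. Low levels in these cells would be missed. These cells need Bcl6 and had it at 99.96 CPM (11 UMIs), the highest of the T cell subsets and above the next one, though 1 cell held 7 of the 11 UMIs and the level without it was 53.6 CPM. NK cells had Prdm1 at 82.1 CPM (115 UMIs in 28.7% of cells), against 114 CPM in plasma cells. The log2 ratio of plasma over NK cells was 0.47 (0.10 to 0.84) by CPM. Immunoglobulin constant genes made up 46.2% of plasma cell UMIs, which lowers the CPM of other genes, and this ratio was not computed under TMM. NK cells had no UMI of Irf4, which allows up to 2.14 CPM. Xbp1 stood at 77.1 CPM in NK cells.

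**Figure D5:**
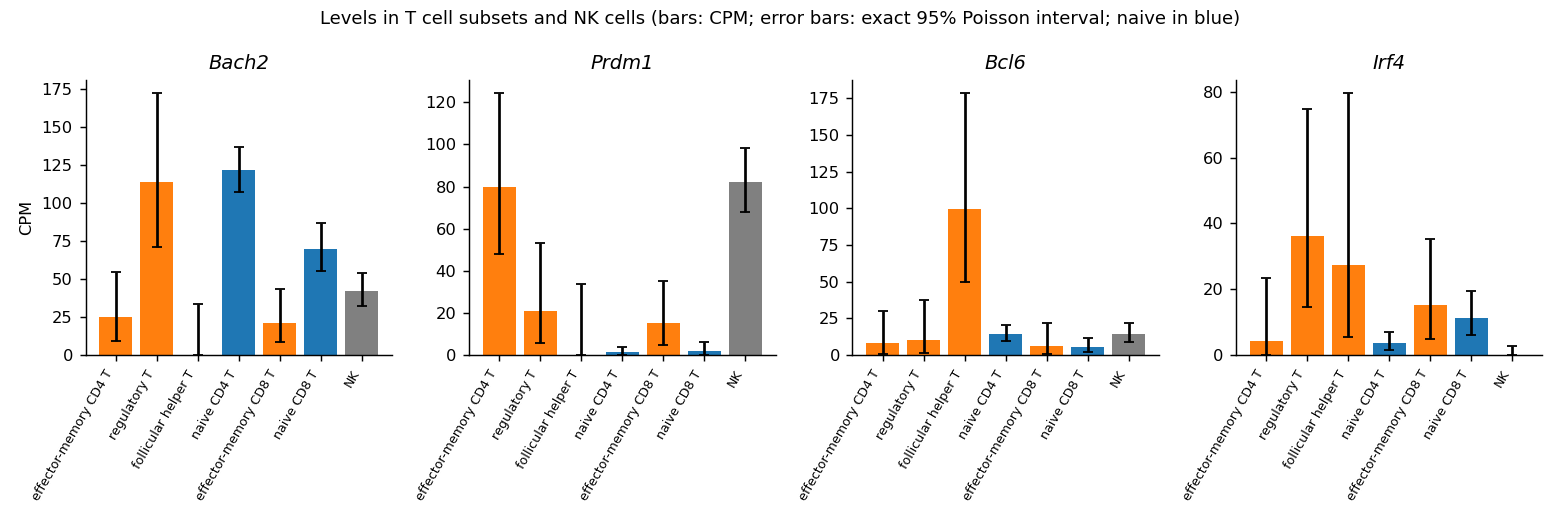
Levels of Bach2, Prdm1, Bcl6 and Irf4 (CPM, bars from 0) in T cell subsets and NK cells, with exact 95% Poisson intervals. Bach2 was higher in naive than in effector-memory T cells, Prdm1 was highest in effector-memory CD4 T cells and NK cells, and Bcl6 was highest in follicular helper T cells.

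In myeloid cells, Bcl6 and Xbp1 were the members most clearly present. Bcl6 stood at 150 CPM in nonclassical monocytes (48 UMIs in 30 of 47 cells), 97.0 CPM in type 2 dendritic cells (13 UMIs), 46.5 CPM in type 1 dendritic cells, 42.4 CPM in classical monocytes and 38.5 CPM in neutrophils. The level in nonclassical monocytes was above that of B cells at 48.8 CPM, with intervals of 111 to 199 CPM and 45.6 to 52.2 CPM. Xbp1 stood at 319 CPM in nonclassical monocytes, 311 CPM in classical monocytes and 251 CPM in plasmacytoid dendritic cells, 3 levels that could not be separated, and at 100.1 to 115 CPM in macrophages, both types of conventional dendritic cells and neutrophils. All were above B cells at 65.4 CPM in value and far below plasma cells at 1822 CPM. The plasmacytoid dendritic cells over B cells ratio of Xbp1 was 1.94 (1.47 to 2.38). Neutrophils had no UMI of Irf4, Prdm1 or Bhlhe41 among 1868029 UMIs. Haemoglobin made up 82.2% of the UMIs of erythroid cells, in which all 10 members stood at 4.45 CPM or less.

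Across the 17 groups of at least 30 cells, other genes were ranked by the Pearson r of log2(CPM + 1) with each member, as a description. The groups were treated as parts of 1 pooled sample, so no p-value is attached. Pax5 was most like Snn (0.945), Carmil1 (0.944) and the B lineage surface gene Ly6d (0.940), and Ebf1 most like Chst3 (0.959), Ly6d (0.955) and Carmil1 (0.954). Spib was most like Gga2 (0.964), Bend5 (0.960) and Ly6d (0.941). Bach2 was most like Rhoh (0.919), Zcchc11 (0.912) and Zfp280d (0.911), and Bcl6 most like Rgs2 (0.926), Plekhf2 (0.917) and Dusp6 (0.888). Pou2af1 was most like Mzb1 (0.933), a gene of antibody-making cells, the adaptor gene Blnk (0.931) and Ralgps2 (0.925). Irf4 was most like Pou2af1 (0.903), Mzb1 (0.879) and Tnfrsf13b (0.874), the gene of the receptor TACI. Bhlhe41 was most like Bcar3 (0.939), Blnk (0.914) and Ly6d (0.911). Xbp1 was most like Edem2 (0.920), Fkbp2 (0.920) and Tmed10 (0.900), genes of the secretory pathway. Prdm1 had the weakest matches, Nucb1 (0.879), Slc3a2 (0.821) and Zbtb38 (0.793). Between members, r was 0.923 for Pax5 with Ebf1, 0.923 for Pax5 with Spib, 0.479 for Prdm1 with Xbp1 and 0.117 for Bach2 with Prdm1.

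Free RNA in droplets gives UMIs in cells that do not express a gene, and its part in the low levels was not tested. For T cells, macrophages and neutrophils the summed marker levels in plasma cells were close to those in B cells. The 5 T cell markers summed to 21.7 CPM in plasma and 23.5 CPM in B cells. The 5 macrophage markers summed to 45.9 CPM in plasma and 43.2 CPM in B cells, and the 7 neutrophil markers to 72.6 CPM in plasma and 77.9 CPM in B cells. In plasma cells all 5 T cell, all 5 macrophage and 5 of 7 neutrophil markers had a UMI. Other lists were less alike. Erythroid markers summed to 7.51 CPM in plasma and 22.0 CPM in B cells, and plasmacytoid dendritic markers to 3.34 and 15.6 CPM. NK markers summed to 1.67 CPM in plasma and 3.54 CPM in B cells, and megakaryocyte markers to 5.01 and 7.08 CPM. Type 1 dendritic markers went the other way, at 3.34 CPM in plasma and 1.60 CPM in B cells. None of the 4 markers of type 2 dendritic cells had a UMI in plasma cells, against 0.80 CPM in B cells. Scrublet called 137 of the kept barcodes doublets (2.08%), of which 103 lay among the barcodes set aside for passing several gates, 12 in the B cell gate and 0 in the plasma cell gate.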

How the data were processed

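The labels list 2 mouse spleen samples measured by 10x 3′ single-cell RNA sequencing. The deposited values are raw UMI counts per gene symbol and barcode in 1 table, with every value a whole number. Per the labels' protocols, libraries were sequenced on HiSeq4000 or NovaSeq machines and transcripts mapped to mm10-3.0.0. Which program did the mapping is not given in the sources used here. All 10 genes, the marker gates and the gene lists were chosen with earlier results of these data known.

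Barcodes with at least 200 genes and at most 10% mitochondrial UMIs were kept. Cells were gated on raw marker UMIs, with thresholds set from the markers alone: B, T and NK cells needed 5 UMIs over at least 2 markers, and plasma cells at least 10 UMIs of Jchain, 2 plasma markers and 10% immunoglobulin constant UMIs. Barcodes in 2 or more gates were set aside. Doublets were counted with Scrublet (scanpy 1.11.5) and kept otherwise. Summed UMIs were scaled to 1000000 (CPM). Poisson, Clopper-Pearson and conditional binomial intervals are exact at 95% and cover counting error only, and a count of 0 was taken to allow 3 counts. A gene was called higher or lower at 2-fold if it had at least 100 UMIs over both groups. For thinned shares, cells were drawn down to 1000 UMIs and shallower cells left out. The rule for named genes took all 10 members, up to 5 measured genes of each list with the largest ratios and the 3 genes most like each member; the text gives a selection. The ratio step was tested on simulated counts. Alternatives included TMM (edgeR 4.0.16) and median-of-ratios (DESeq2 1.42.0) scaling, used for factors only and not for tests. Motifs were searched on both strands of RefSeq promoters. Python 3.11.15, numpy 2.4.6, scipy 1.17.1 and R 4.3.3 were used.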

Additional observations from a re-analysis of the deposited data

Results flagged for a closer look

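In the 17 barcodes that passed the plasma cell gate and another lineage gate, and so entered no comparison, 3 plasma cell factors were counted far above the 5.06 CPM that a count of 0 allows there. Irf4 stood at 103 CPM (interval 78.7 to 132), Prdm1 at 99.5 CPM (75.8 to 128) and Xbp1 at 2021 CPM (1908 to 2139). These barcodes held 18.9% of all Xbp1 UMIs and 10.5% of all Prdm1 UMIs of the kept barcodes. Pax5 had 2 UMIs and Bach2 none in them.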

How the results depend on the processing

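Over the 10 members and 6 comparisons, 613 alternative log2 ratios were computed. Of these, 520 stayed within the counting interval, 93 moved outside it, and no ratio past 2-fold changed sign. Counts of members past 2-fold stayed within 1.5 times in 63 of 74 alternatives. They moved as follows. With a mitochondrial maximum of 5%, which left 264 of 2868 B cells, marginal zone over follicular (21 and 70 cells) and transitional over follicular (18 and 70 cells) each gave 0 members, and Myc-high over Myc-low (12 and 233 cells) gave 1. B-1-like cells were then too few to compare. With gates 1 UMI stricter, transitional over follicular gave 1 member, lower (Bcl6, -1.11, 38 and 767 cells), while Bhlhe41, at 1.40, was under the UMI minimum. Thinning to 1000 UMIs gave 3 for Myc-high over Myc-low. A minimum of 20 UMIs, or none, gave 4 for marginal zone, 5 for B-1-like and 3 for Myc-high cells, each with Prdm1 added. The cause of the other moves was not tested. Plasma cells over B cells gave 3 higher and 5 lower both with the 17 set-aside plasma barcodes kept and without the plasma cell richest in B cell factors, 2 alternatives chosen after seeing the data. So were leaving marginal zone cells out of the Myc comparison (3 members lower, none higher), Jchain-high cells out of the cycling cells and B-1-like cells out of the class-switched cells. Thinned plasma cells held few UMIs of most members, so their ratios are loose, and Pou2af1 ran from -1.14 (thinned) to 0.99 (size factors). With Spearman's rho, 6 of 10 members shared at most 1 of their 3 most alike genes. No paired analysis was possible because no barcode could be tied to a sample and the table carries no replicate labels.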
